A study of Mus musculus with 12 samples.

Results

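The set described here is the resting oviduct of the mouse: 4 control oviducts out of the 12 in a series counted with the nCounter GX Mouse Inflammation Kit. The samples were taken by the label in the table that reads control 1 to 4, and no measured value was used to choose them. All mice were CD1, an outbred stock in which individual animals differ genetically, and were 6 to 8 weeks old. Each control mouse was injected intraperitoneally at estrus with 100 µL of phosphate-buffered saline that carried 0 µg of lipopolysaccharide (LPS). The other 8 mice differed only in the dose, with 4 given 2 µg (low dose) and 4 given 10 µg (high dose) of LPS from Escherichia coli 055:B5. Oviducts were taken 24 h later, 1 lane per mouse, so an unchallenged oviduct here means a saline-injected one at a single stage of the cycle. The panel counted 185 mRNAs, of which 179 are inflammation genes and 6 are reference genes.

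The oviduct is a muscular tube lined by ciliated and secretory epithelium, and its stroma holds resident leukocytes, macrophages among them. Innate immune cells and epithelia recognise bacterial products through Toll-like receptors, which pass the signal through adaptor proteins and kinases to transcription factors that switch on cytokine and chemokine genes. Complement is a set of plasma and tissue proteins that tag and lyse microbes, and estrogen is known to raise C3 synthesis in the rodent uterus. An unstimulated tissue is known to hold the receptors and kinases of these pathways while most inducible cytokine genes are silent.

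On this platform single barcodes are counted without amplification, and each gene has 1 probe pair, so a count needs no correction for length. Probe pairs differ in how well they bind, so the order of genes is that of their counts and only roughly that of their mRNA copies. The control lanes held 98258 to 126058 endogenous counts, and the LPS lanes 128258 to 196878. Of the fields of view, 90.2%, 73.7%, 83.0% and 62.3% were counted in control mice 1 to 4. Counts were divided by a lane scale, the geometric mean of the 6 reference genes, which was 1.19, 0.773, 0.978 and 1.00 in control mice 1 to 4. The scale from the spiked positive control probes ran the other way for the first pair of mice, at 0.917, 1.07, 1.03 and 0.977, so some orders among the mice depend on the scale. Markers fixed for the oviduct epithelium (Ovgp1, Pax8, Foxj1, Cdh1 and Epcam) had 0 of 5 members on the panel, so the labelled tissue could not be checked against them.

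A gene was marked as above the limit in a lane when its raw count exceeded the mean plus 2 SD of the 8 negative control probes of that lane. The limit was 5.33, 6.05, 6.78 and 5.33 counts in control mice 1 to 4. The spiked RNAs at the lowest and second lowest concentration gave 15 to 20 and 47 to 56 counts in these lanes, all over the limit. Of the 179 inflammation genes, 130 lay above it in all 4 control lanes, 8 in 3 lanes, 9 in 2 lanes, 8 in 1 lane and 24 in 0 lanes.

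The resting oviduct put most of its counts into few genes. The 23 genes with a mean scaled count of at least 1000, called abundant here, were 12.8% of the genes and held 67.6% ± 0.575 (SD, n = 4) of all inflammation gene counts. The 69 intermediate genes, from 100 to under 1000, held 30.6% ± 0.499. The 63 scarce genes, under 100 but above the limit in at least 1 control lane, held 1.75% ± 0.158. The 24 genes above the limit in 0 control lanes, called absent in this sense only, held 0.0676% ± 0.00705. These shares hardly moved between mice: the abundant genes held 66.9% in the lowest and 68.3% in the highest. The median gene had a mean scaled count of 123.1, and among the 130 genes above the limit in all lanes the highest mean was 1240 times the lowest.

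**Figure D1:**
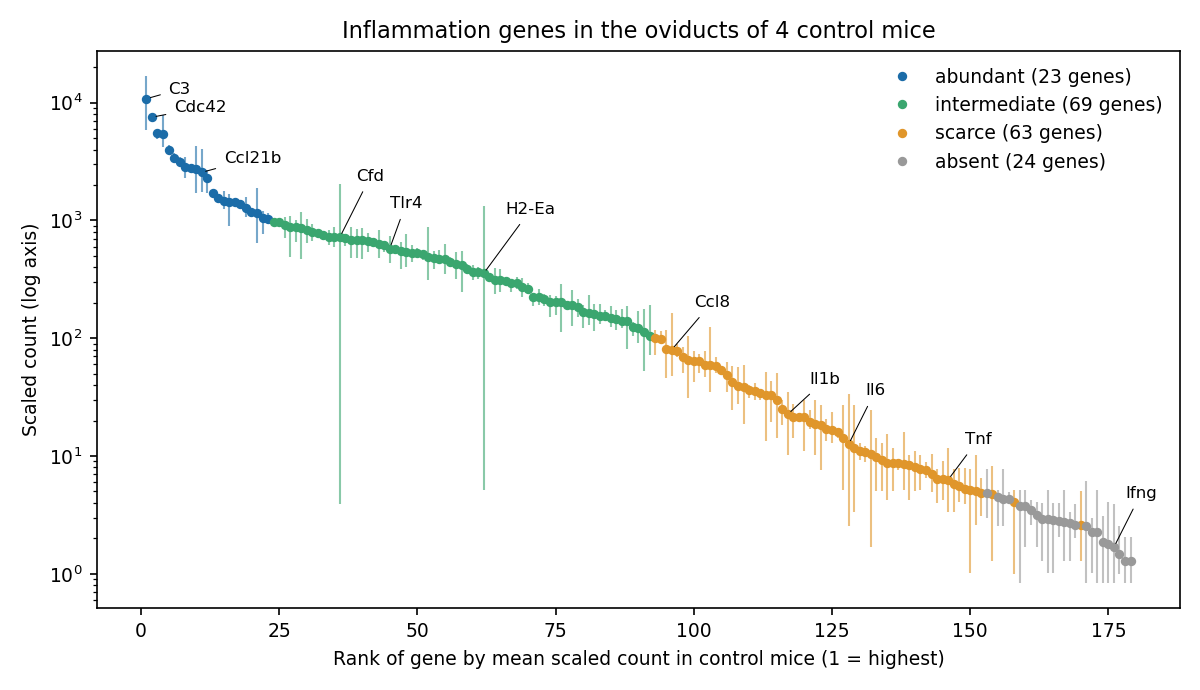
Mean scaled count of each of the 179 inflammation genes over the 4 control mice (vertical axis, log scale) against its rank, coloured by level, with a vertical line from the lowest to the highest mouse. The 23 abundant genes lie at 1000 or more, the 24 genes above the limit in 0 control lanes lie in the tail on the right, and the longest lines are those of Cfd and H2-Ea.

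Counts were highest for C3, the central component of complement, and lowest for C9, a subunit of its lytic pore, and Il3, a cytokine of activated T cells, which tied. Promoters of these genes are printed to set the highest and lowest of the panel side by side, and that of Cdc42, the gene next after C3, was added after its values were seen. Each run is a RefSeq promoter (GRCm38.p6) of 300 bases, 250 before to 50 after the start, written 5′ to 3′ on the gene's strand, with CG pairs in capitals. C3 lies at chr17:57228087-57228386 on the minus strand, Cdc42 at chr4:137357710-137358009 on the minus strand, C9 at chr15:6445096-6445395 on the plus strand and Il3 at chr11:54267230-54267529 on the minus strand.
C3: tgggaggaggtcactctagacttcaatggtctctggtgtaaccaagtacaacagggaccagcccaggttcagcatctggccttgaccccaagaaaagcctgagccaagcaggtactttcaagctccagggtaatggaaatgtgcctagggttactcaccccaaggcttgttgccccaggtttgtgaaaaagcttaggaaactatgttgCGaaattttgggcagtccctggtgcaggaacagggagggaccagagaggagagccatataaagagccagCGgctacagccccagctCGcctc
Cdc42: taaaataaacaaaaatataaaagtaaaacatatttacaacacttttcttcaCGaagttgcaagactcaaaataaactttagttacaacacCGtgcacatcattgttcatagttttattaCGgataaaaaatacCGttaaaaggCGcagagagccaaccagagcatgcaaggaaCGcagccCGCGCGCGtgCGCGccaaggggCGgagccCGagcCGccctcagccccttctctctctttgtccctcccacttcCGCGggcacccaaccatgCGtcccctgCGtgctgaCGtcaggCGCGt
C9: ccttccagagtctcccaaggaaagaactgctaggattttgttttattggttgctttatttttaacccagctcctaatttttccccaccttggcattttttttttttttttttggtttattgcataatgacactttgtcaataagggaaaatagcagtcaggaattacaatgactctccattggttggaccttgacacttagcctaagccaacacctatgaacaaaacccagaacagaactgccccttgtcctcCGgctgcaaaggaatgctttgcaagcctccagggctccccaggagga
Il3: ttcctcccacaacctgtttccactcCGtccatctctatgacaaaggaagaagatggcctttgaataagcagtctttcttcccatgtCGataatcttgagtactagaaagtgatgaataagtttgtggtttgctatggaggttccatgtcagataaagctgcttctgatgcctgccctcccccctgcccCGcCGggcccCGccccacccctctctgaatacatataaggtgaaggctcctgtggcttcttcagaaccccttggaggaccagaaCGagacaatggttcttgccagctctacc
The promoter of C3, the most counted gene, held 3 CG pairs, that of Cdc42 held 22, that of C9 held 1 and that of Il3 held 6. Of the motifs searched on either strand, the window of C3 held the letters TATAAA, within the 50 bases after the annotated start. That of Cdc42 held the same letters near the 5′ end of the window, far before the start. By their positions neither is called a TATA box here. The window of Cdc42 also held the GC box GGGCGG and the cyclic AMP response element TGACGTCA. The window of C9 held CCAAT, and that of Il3 held the GC box.

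RefSeq promoter entries were matched for 130 of the 179 genes. Entries covered 20 of the 23 abundant genes and 21 of the 24 absent genes. They covered 68.1% of the intermediate and 66.7% of the scarce genes, under the 80% set as a minimum, so those levels were not summarised. Abundant genes had a median of 16.5 CG pairs per window (0 to 50) and a median GC content of 59.2%. Absent genes had a median of 3 CG pairs (1 to 11) and a GC content of 45.3%. Over all 27025 promoters of the table the medians were 7 CG pairs and 52.7%, so the abundant genes lay above that background and the absent genes below it. The motif GGGCGG was in 12 of the 20 abundant (60%) and 5 of the 21 absent windows (23.8%), against 35.9% of all promoters. TGACTCA was in 0 of 20 abundant and 4 of 21 absent windows, against 5.17% of all. TATAAA was in 30% of abundant and 38.1% of absent windows, against 14.2% of all, and CCAAT in 40% and 23.8%, against 37.9%. TGACGTCA was in 1 of 20 abundant and 0 of 21 absent windows, against 1.88% of all. These are descriptions of letters in 1 window per gene and say nothing of binding by a factor.

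The abundant genes included 5 G proteins of cell signalling and the cytoskeleton. Cdc42, a small G protein that directs actin and cell polarity, stood at 7868, 7843, 7232 and 7173 scaled counts in control mice 1 to 4 (7529 ± 378, SD, n = 4). Gnas, the stimulatory G protein subunit that activates adenylyl cyclase, stood at 4914, 5850, 5594 and 5946 (5576 ± 466). For both, the highest mouse was less than 1.5 times the lowest on this scale. The raw counts of Cdc42 were 9327, 6060, 7070 and 7191. Its coefficient of variation was 5.02% on this scale and 25.3% on the positive control scale, so its steadiness depends on the scale. Rhoa, which drives contraction and stress fibres, stood at 3895, 4355, 3851 and 3850 (3988 ± 246). Rac1, which drives membrane ruffling, stood at 2890, 3442, 3136 and 3103 (3143 ± 227). Gnb1, a G protein beta subunit, stood at 2796 ± 150. The 16 measured members of the small G protein, G protein and actin list held 26.5% ± 2.71 of the counts, with 5 abundant, 6 intermediate, 4 scarce and 1 absent. The absent one was Gngt1, a G protein gamma subunit known from photoreceptors.

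Kinases of the mitogen-activated protein (MAP) kinase pathway were also among the abundant genes. Mapk3, the terminal kinase of the Ras pathway, stood at 2306, 3454, 3005 and 2549 (2828 ± 508). Mice 2 and 3 were higher than mice 1 and 4 on this scale, while the raw counts were 2733, 2669, 2938 and 2555, so the order depends on the scale. All 18 measured members of the list lay above the limit in all 4 lanes, with 6 abundant, 11 intermediate and 1 scarce, and they held 15.5% ± 1.14 of the counts. Shc1 (1702 ± 68.5), an adaptor of receptor kinases, Mapkapk2 (1424 ± 61.5), a target of p38 that stabilises cytokine mRNAs, and Map2k1 (1375 ± 57.4), which activates Mapk3, were all among the 20 most counted genes. The lowest member was Map3k9, a mixed lineage kinase, at 9.30 ± 3.28.

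Of the transcription factors of stress and inflammation, 21 of 22 lay above the limit in all 4 control lanes. Nfe2l2, which drives antioxidant genes, led at 2296 ± 418, followed by Atf2 (1539 ± 113) and Jun (1466 ± 235), both partners in AP-1 complexes, and Cebpb (1288 ± 222), which drives acute phase genes. Of the 22 measured, 4 were abundant, 15 intermediate and 3 scarce, and the lowest was Mef2b, a factor of the MEF2 family, at 7.78 ± 2.26. The TNF and NF-kB signalling list had 6 of 7 members at the intermediate level, from Nfkb1, an NF-kB subunit, at 667.6 ± 104 down to the scarce Daxx, a death receptor binding protein, at 78.3 ± 8.63. Hspb1, a small heat shock protein, stood at 4172, 7858, 4784 and 5065 (5470 ± 1635), with mouse 2 the highest. Hmgn1, a nucleosome binding protein, stood at 3268, 3739, 3380 and 3258 (3411 ± 226).

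Complement genes ran from the most counted of the panel to absent ones. C3 stood at 5849, 9200, 11332 and 16824 scaled counts in mice 1 to 4 (10801 ± 4606), more than any other gene of the panel on average, reference genes included. Among the inflammation genes it ranked second in mouse 1, below Cdc42, and first in mice 2, 3 and 4. As a share of the inflammation gene counts it was 6.99%, 8.61%, 10.8% and 15.9%, and its ratio to Cdc42 within the lane was 0.743, 1.17, 1.57 and 2.35. Mouse 4, the highest, was also the lane with the fewest fields counted, and the part of that in its value was not tested. C1s, a serine protease of the classical pathway, stood at 1709, 2085, 4284 and 2847 (2731 ± 1138), with mouse 3 the highest, and its partner protease C1r at 1059 ± 199. Cd55, which protects the host's own cells from complement, stood at 1428 ± 367, with 901.8 in mouse 1 and 1453 to 1681 in the others.

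Of the 19 complement genes measured, 4 were abundant, 5 intermediate, 7 scarce and 3 absent, and together they held 19.8% ± 5.80 of the counts (13.9% to 26.9%). The classical pathway components measured were abundant or intermediate, with C1qb at 914.9 ± 153, C1qa at 550.9 ± 112, C2 at 886.9 ± 271 and C4a at 868.5 ± 321. Cfb, the factor B of the alternative pathway, was scarce at 81.4 ± 36.8. The terminal components were scarce or absent, with C7 at 38.6 ± 17.9, C6 at 11.7 ± 10.7, Hc (C5) at 7.10 ± 2.34 and C8b at 4.90 ± 1.40, and C8a and C9 were above the limit in 0 lanes. The lectin Mbl2, made by the liver, was also absent, while its proteases Masp2 (59.3 ± 43.7) and Masp1 (15.9 ± 1.46) were scarce. C4a has a near-identical copy, C4b, so its count may hold both. Of the receptors for complement fragments, C3ar1, the receptor of C3a, stood at 140.5 ± 43.9. Itgb2, the beta chain of complement receptor 3, stood at 99.8 ± 21.2. Both were lower than C3 and the classical pathway components and higher than Cfb, Masp2, Masp1 and the terminal components.

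**Figure D2:**
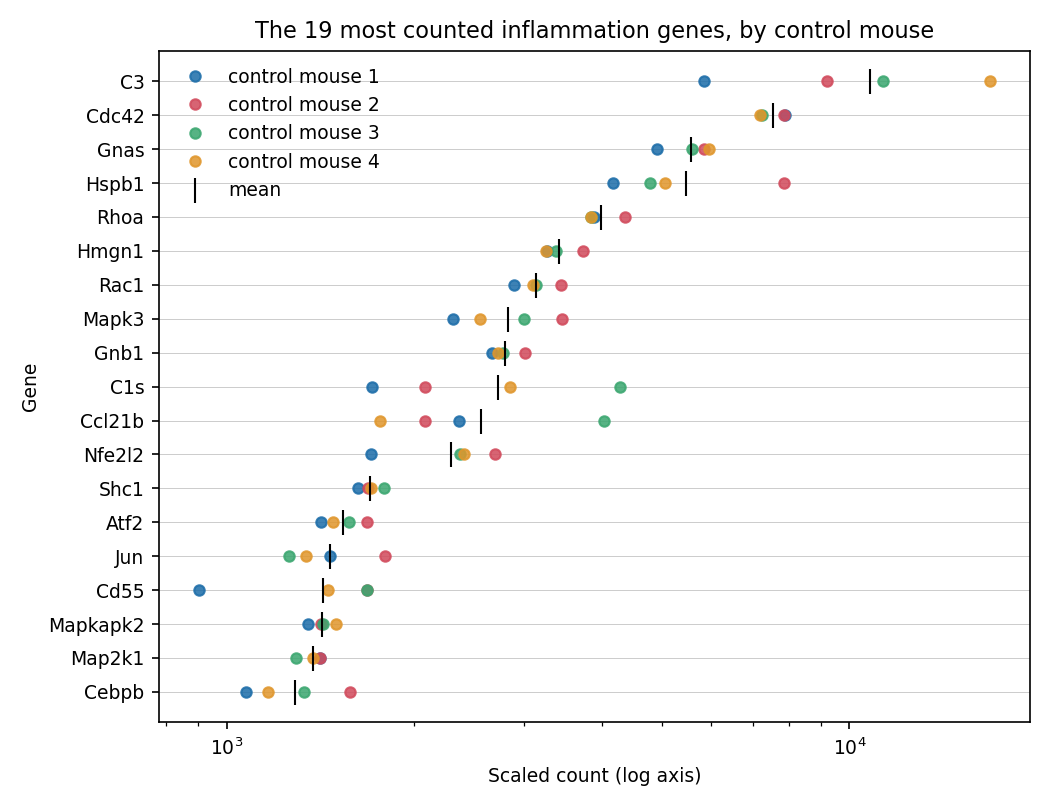
Scaled counts of the 19 most counted inflammation genes in the 4 control mice (log scale), 1 point per mouse, with the mean as a bar. C3, C1s, Ccl21b and Hspb1 spread widely, while Cdc42, Gnb1 and Shc1 lie close together.

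The 20 most counted genes held 64.4% ± 0.552 of the counts, and 17 genes were among the first 20 in every control mouse. Their exact order was not fixed: of 19 neighbouring pairs in the order of means, 6 kept their order in all 4 mice, and in 14 the means differed by less than the larger SD. C3 and Cdc42 were one of the pairs within 1 SD. The reference genes Gapdh (8352 ± 626), a glycolytic enzyme, and Cltc (7538 ± 364), the clathrin heavy chain, lay between C3 and Cdc42. Tubb5 stood at 1309 ± 302, Pgk1 at 1216 ± 116, Hprt1 at 832.4 ± 104 and Gusb at 411.4 ± 21.3. These 6 set the scale, so their scaled spread is partly built in.

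Chemokine ligands were 1 abundant gene and a long scarce tail. Ccl21b, which guides dendritic cells and naive T cells into lymphatics, stood at 2364, 2079, 4038 and 1761 (2560 ± 1016), with mouse 3 the highest. RefSeq now lists its accession under Ccl21a, and the near-identical Ccl21 copies may share such a probe, so the value may hold several of them. Of the 18 ligands measured, 1 was intermediate, 14 scarce and 2 absent. The intermediate one was Ccl11 (eotaxin), an attractant of eosinophils, at 163.1 ± 49.7. Ligands known to be induced by LPS were scarce: Ccl2, which draws monocytes, had raw counts of 74, 46, 38 and 35 (48.9 ± 14.1 scaled). Cxcl10, an interferon-induced attractant of T cells, had 13, 23, 19 and 25 (21.3 ± 8.07), and Cxcl1, which draws neutrophils, had 6, 11, 10 and 10 (9.88 ± 3.76). All 3 lay above the limit in each control lane, Cxcl1 in mouse 1 by less than 1 count. Cxcl2 and Cxcl3, related neutrophil attractants, were absent, with raw counts of 1 to 3 and 2 to 5.

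Of 8 chemokine receptors, 2 were intermediate, 2 scarce and 4 absent. Cxcr4, the receptor of Cxcl12, stood at 630.7 ± 156 and Ccr2, the monocyte receptor of Ccl2, at 202.0 ± 79.2, and both lay above the limit in all lanes. Ccr1 and Ccr3 were scarce, and Ccr4, Il8rb, Ccr7 and Il8ra were absent. Il8rb and Il8ra (Cxcr2 and Cxcr1 in RefSeq) are receptors that neutrophils use to reach a site of infection, and their raw control counts were 3 to 5 and 1 to 3.

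Both chains of the LPS receptor were counted in every control oviduct. Tlr4, the LPS receptor, had raw counts of 521, 567, 558 and 564 and scaled counts of 439.5, 733.9, 570.8 and 562.6 (577 ± 121). Ly96 (MD-2), the subunit that binds LPS beside it, had raw counts of 223, 182, 211 and 215 (213.5 ± 19.5 scaled). The ratio of Tlr4 to Ly96 within the lane was 2.34, 3.12, 2.64 and 2.62. Myd88, the adaptor of most Toll-like receptors, stood at 313.0, 873.6, 349.8 and 415.9 (488.1 ± 261), with mouse 2 apart from the rest. Tollip, which dampens the pathway, was the highest of the 12 pattern recognition genes at 782.5 ± 53.5. Tlr3, a receptor of double-stranded RNA, followed Tlr4 among the Toll-like receptors at 312.7 ± 58.1, ahead of Tlr1 (105.2 ± 58.7). Tlr6, Tlr5, Tlr7 and Tlr2 were scarce, at 64.8 to 35.3. Crp, the acute phase protein of the liver, and Mbl2 were absent.

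Inducible cytokines were near the floor of the assay. Il1b, the fever-inducing cytokine of macrophages, had raw counts of 12, 27, 20 and 25 (22.6 ± 10.3 scaled) and lay above the limit in all 4 lanes. Tnf had 4, 9, 6 and 4 and lay above it in mouse 2 alone. Il6 had 3, 26, 4 and 10 and lay above it in mice 2 and 4. Nos2, the inducible nitric oxide synthase, had 6, 8, 6 and 11 (8.13 ± 2.97) and lay above it in 3 lanes. So of these 4 genes Il1b alone was counted in every control oviduct. In the dose comparison given below, Il1b alone of the 4 was called higher at the high dose (edgeR adjusted p = 0.0179). The edgeR adjusted p was 0.0614 for Tnf, 0.655 for Il6 and 0.0596 for Nos2. The 20 innate cytokines and growth factors held 1.69% ± 0.0612 of the counts, with 4 intermediate, 12 scarce and 4 absent. The 4 intermediate ones were Pdgfa (729.8 ± 102), a growth factor of stromal cells, Csf1 (363.1 ± 39.9), the survival factor of macrophages, Il18 (205.0 ± 36.5), an epithelial cytokine held as a precursor, and Csf3 (148.8 ± 28.0), the growth factor of neutrophils. Il1a, Ifnb1, Il11 and Il12a were absent, and Ifna1 (5.13 ± 2.97) belongs to a family of near-identical genes, so its count may hold several.

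Of 12 cytokines of lymphocytes measured, 0 were abundant or intermediate, 4 were scarce (Lta, Il4, Il13 and Il10) and 8 were absent (Il5, Fasl, Il2, Il22, Cd40lg, Il9, Ifng and Il3). Lta, a lymphocyte relative of TNF, was the highest at 16.8 ± 5.02, and it alone lay above the limit in all 4 lanes. The list held 0.0507% ± 0.00504 of the counts. The cytokine receptors were better counted than these lymphocyte cytokines, which was not so for chemokine receptors against chemokine ligands. Of 9 cytokine receptors 5 were intermediate, led by Il10rb (883.0 ± 152), a chain shared by receptors of the IL-10 family. Of the same 9, 1 was absent, Il22ra2 (2.86 ± 1.39), a soluble decoy of IL-22. The TGF-beta family, which restrains immune cells and shapes the stroma, had all 4 measured members at the intermediate level. Its highest was Tgfb3 at 728.1 ± 129, and its lowest was Tgfb1 at 261.2 ± 21.7. Nox1, a superoxide-producing oxidase, was the lowest of the oxidant genes at 5.05 ± 3.5. Pla2g4a, which frees arachidonic acid for prostanoid synthesis, was the one gene measured of that pathway and stood at 528.6 ± 83.6.

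Markers of cell types fell into the same order. All 4 measured macrophage and monocyte markers were intermediate and above the limit in every lane (C1qb, C1qa, Ccr2 and C3ar1). C1qb and C1qa, 2 chains of 1 protein, kept a ratio within the lane of 1.81, 1.60, 1.65 and 1.63. Of 3 neutrophil markers, Itgb2, which other leukocytes also carry, was scarce, and Il8rb and Il8ra were absent. Of 9 T and NK cell markers, 4 were scarce, led by Cd4 (33.0 ± 18.0), and 5 were absent (Ccr4, Fasl, Il2, Cd40lg and Ifng). Of 2 genes listed for eosinophils, Ccr3 was scarce at 18.5 ± 9.60. The other, Il5, is one of the lymphocyte cytokines given above and not a marker of the cell itself, and it was absent. Of 4 antigen presentation genes, H2-Eb1, a chain of the class II molecule I-E, was abundant and Ccr7 absent. Of the smooth muscle list, Ppp1r12b, a myosin phosphatase subunit, stood at 59.8 ± 14.1 and Myl2, a myosin light chain known from cardiac and slow muscle, at 5.82 ± 2.02. In bulk tissue fewer cells of a type and less RNA per cell cannot be told apart.

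The 24 absent genes were Ccr4, Il8rb, Il1a, Il5, Fasl, Ifnb1, Cxcl3, Crp, Mbl2, C8a, Il22ra2, Il2, Ccr7, Il11, Il12a, Il22, Il8ra, Cd40lg, Gngt1, Il9, Ifng, Cxcl2, Il3 and C9. Their highest raw control count was 6, and 28 of their 96 control values were at 1, the smallest value in the table. A count this low sets an upper bound and does not show that a gene is silent. In the 8 LPS lanes, 21 of the 24 exceeded the limit at least once, and 10 of the 24 did so in 2 lanes or fewer, 0 included. Negative control probes also exceeded it in some lanes, as in control mouse 1 (6 counts against 5.33). So a single crossing does not show that a probe counted its mRNA. Il11, C9 and Il3 exceeded it in 0 of 8 LPS lanes. Il8rb exceeded it in all 8, with raw counts of 16 to 42 in low-dose and 24 to 64 in high-dose mice, against 3 to 5 in the controls. The boundary itself was soft. The genes just under the mean limit were Il4 (6, 4, 4 and 8 raw counts), Myl2 (4, 6, 7 and 5) and Tnf (4, 9, 6 and 4). Those just over it were Il18rap (5, 7, 6 and 6), Tnfsf14 (8, 6, 7 and 4) and Hc (7, 8, 7 and 5).

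The spread between mice was larger than counting error for most genes. Among the 130 genes above the limit in all control lanes, the median coefficient of variation (CV) of scaled counts was 17.8%, against 5.97% from counting alone. It was more than 2 times the counting value for 79 genes and at or below it for 16. The median was 9.01% for abundant, 16.5% for intermediate and 26.4% for scarce genes, where counting alone gave 2.15%, 5.09% and 17.7%. With the positive control scale the medians were 20.1%, 20.02% and 27.8%, so the lower spread of the abundant than of the intermediate genes was not seen on that scale.

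**Figure D3:**
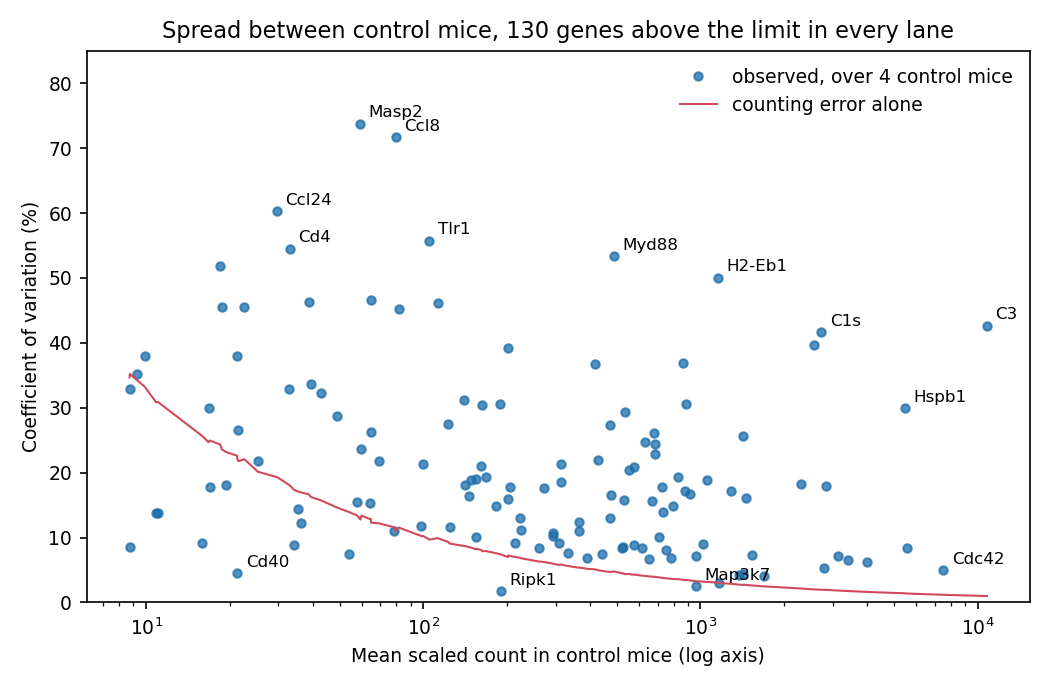
Coefficient of variation in percent over the 4 control mice (linear axis) against mean scaled count (log axis) for the 130 genes above the limit in all control lanes, with the value that counting error alone gives as a line. Most points lie above the line, with Masp2 and Ccl8 highest and Ripk1 lowest.

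The 8 genes with the lowest CV included Ripk1 (1.71%), Map3k7 (2.48%), Shc1 (4.03%), Map2k1 (4.18%), Mapkapk2 (4.32%), Cd40 (4.48%) and Cdc42 (5.02%). Ripk1, a kinase of the TNF receptor, stood at 186.4, 190.3, 194.3 and 189.5 scaled counts, closer together than its counting error of 7.4% would on average leave them. Map3k7 (TAK1) is the kinase that couples receptors to NF-kB. On the positive control scale these 8 had a CV of 21.4% to 25.3%, so their steadiness is steadiness against the reference genes.

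The 8 genes with the highest CV were Masp2 (73.8%), Ccl8 (71.6%), Ccl24 (60.3%), Tlr1 (55.8%), Cd4 (54.5%), Myd88 (53.4%), Ccr3 (51.9%) and H2-Eb1 (50.05%), the only ones over 50%. Masp2 stood at 124.9, 37.5, 39.9 and 34.9 scaled counts. Ccl8, a monocyte attractant, stood at 165.3, 47.9, 49.1 and 56.9. Tlr1, a partner of Tlr2 in sensing lipoproteins, stood at 193.2, 76.4, 72.6 and 78.8. In all 3 mouse 1 was apart and the other mice lay together, and the CV was larger still on the positive control scale (97.7%, 95.3% and 80.3%). Ccl24, an eotaxin made by macrophages, and Ccr3, its receptor, were both lower in mice 1 and 3 than in mice 2 and 4, with raw counts of 18, 39, 14 and 39 and of 9, 21, 13 and 26. Myd88 fell from 53.4% to 28.8% with the positive control scale.

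The genes in the following account were chosen after their values were seen, as those in which 1 control mouse lay more than 1.5 times above or below all others on both scales. Mouse 1 was above the rest for Ccl7, Ccl8, Il10, Masp2, Tlr1 and Tlr6. Ccl7, a monocyte attractant like Ccl8, had raw counts of 19, 4, 5 and 8, and Tlr6, which also pairs with Tlr2, had 123, 24, 66 and 57. Mouse 2 was above for Cxcl5, H2-Ea and Il6 and below for Cfd and Tlr6. Mouse 3 was above for Nox1 and below for Cd4, H2-Ea and Il23a. Mouse 4 was above for C6, Cfd and Il13. These were 6, 3, 1 and 3 genes above and 0, 2, 3 and 0 below in mice 1 to 4. The genes screened were the 155 above the limit in at least 1 control lane. Some lay near the limit, where a factor of 1.5 is a few counts. Examples are Nox1, with a mean scaled count of 5.05, and Il23a, with raw counts of 10, 21, 5 and 16. So nothing is read from these numbers about single mice.

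**Figure D4:**
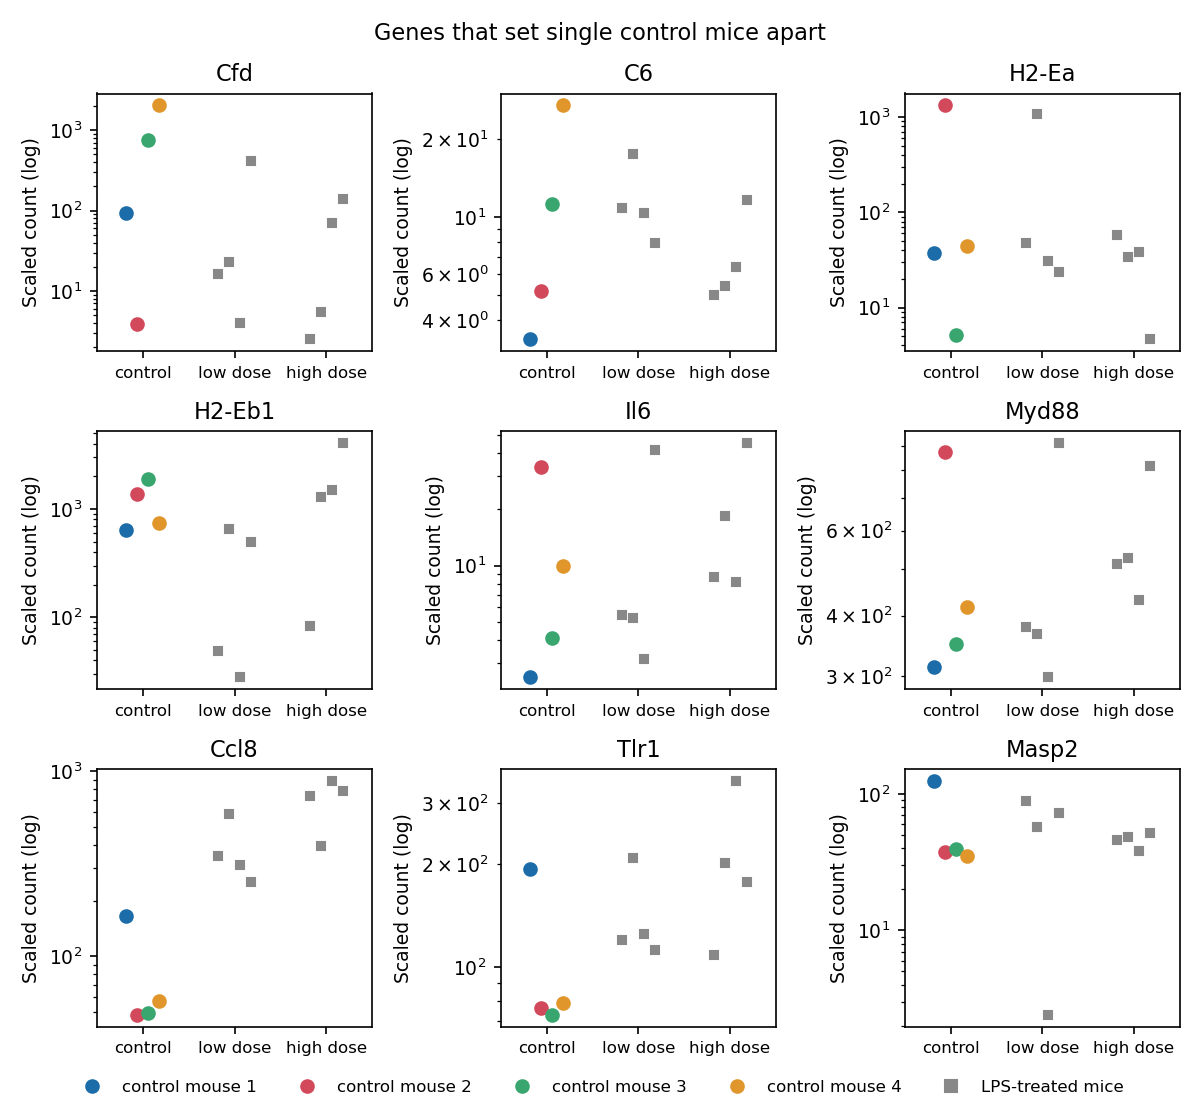
Scaled counts (log axes) of 9 genes with a wide range among the control mice, 1 point per mouse, with each control mouse in its own colour and the 8 LPS-treated mice as grey squares. Mouse 1 is apart for Ccl8, Tlr1 and Masp2, mouse 2 is highest for H2-Ea, Il6 and Myd88, and Cfd and H2-Ea also range widely in the LPS-treated mice.

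The widest ranges were those of Cfd and H2-Ea, which were intermediate by their means and above the limit in 3 of 4 control lanes. Cfd (adipsin), the protease of the alternative complement pathway that fat cells secrete, had raw counts of 109, 3, 741 and 2044 in control mice 1 to 4. Its raw counts were 18, 26, 5 and 421 in the low-dose mice and 2, 5, 76 and 119 in the high-dose mice, so its range was wide in every group. H2-Ea, the alpha chain of I-E, had raw counts of 44, 1031, 5 and 44, and H2-Eb1, its beta chain, had 758, 1058, 1830 and 738. The ratio of the alpha to the beta chain within the lane was 0.0580, 0.974, 0.00273 and 0.0596. In the low-dose lanes H2-Ea had 53, 1227, 39 and 24 raw counts and H2-Eb1 had 54, 740, 35 and 502. In the high-dose lanes H2-Ea had 46, 31, 42 and 4 and H2-Eb1 had 66, 1187, 1625 and 3493. H2-Ea thus reached 1000 raw counts in 1 control and 1 low-dose mouse, and H2-Eb1 was under 100 in 3 of the 8 LPS lanes.

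Set beside the LPS groups, baseline level and the number of genes called by edgeR's quasi-likelihood test (Benjamini-Hochberg adjusted p under 0.05) can be given as a description, since the control values that set the levels are also in the contrast. Of the 165 genes tested across all lanes, 37 (22.4%) were called higher and 0 (0%) called lower in the high-dose than in the control mice. At an unadjusted p under 0.05 these were 53 and 0, and DESeq2 called 35 and 31. At the low dose 4 (2.42%) were higher and 0 (0%) lower, against 22 and 2 unadjusted and 9 and 2 by DESeq2. The split at the high dose moves with the scale: scaling by the total inflammation count gave 28 higher and 74 lower, TMM 34 and 20, and DESeq2's size factors 34 and 25. The median log2 fold change over all genes tested at the high dose was 0.24 with the reference genes, 0.20 with the positive controls, 0.00 with TMM, -0.02 with DESeq2's size factors and -0.44 with the total.

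By level, 3 of 23 abundant genes were called higher at the high dose, all of them complement genes (C3, C1s and C1r), with 9 of 69 intermediate, 22 of 63 scarce and 3 of 10 tested absent genes. The median log2 fold change was 0.05, 0.16, 0.46 and 1.09 in that order, and nothing is read from the trend. The 10 absent genes passed the filter only through LPS lanes, in which they were high, and the other 14 were not tested, so the count and median of the absent level are set upward by the filter. From the highest baseline of the panel, C3 rose by 1.93 ± 0.34 on the log2 scale (SE; edgeR adjusted p = 0.00183). C1s rose by 2.14 ± 0.35 (edgeR adjusted p = 0.00102). The 3 absent genes called higher were Il8rb, Ccr7, which guides cells to lymph nodes, and Cxcl2, all of which entered the test in that way. With the replicate number as a block, Ccr7 and Cxcl2 were no longer called (edgeR adjusted p = 0.0638 and 0.0514). The 4 genes called higher at the low dose were scarce (Cfb, Ccl8 and Ccl5) or absent (Il8rb). There the same block ended the call of Ccl5 (edgeR adjusted p = 0.121). It left Cfb and Ccl8 just under the threshold (edgeR adjusted p = 0.0495 for both) and Il8rb at 0.00402.

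The number of inflammation genes above the limit was 145, 140, 141 and 144 in the control mice (142.5 ± 2.38). It was 163, 161, 160 and 154 at the low dose (159.5 ± 3.87), and 145, 160, 168 and 169 at the high dose (160.5 ± 11.1). The low dose did not overlap the controls, and the high dose touched them in 1 mouse. By an exact permutation test, two-sided, the low dose was 17.0 genes above the controls (p = 0.0286, adjusted over 4 such tests 0.0571) and the high dose 18.0 (p = 0.0571, adjusted 0.0762). The smallest p that 4 against 4 allows is 0.0286, and none passed 0.05 after adjustment. LPS lanes held more counts, and their limits were 3.16 to 6.57, and with counts on the positive control scale and 1 limit for all lanes the differences were 8.00 (p = 0.114, exact) and 12.5 (p = 0.0286, exact).

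**Figure D5:**
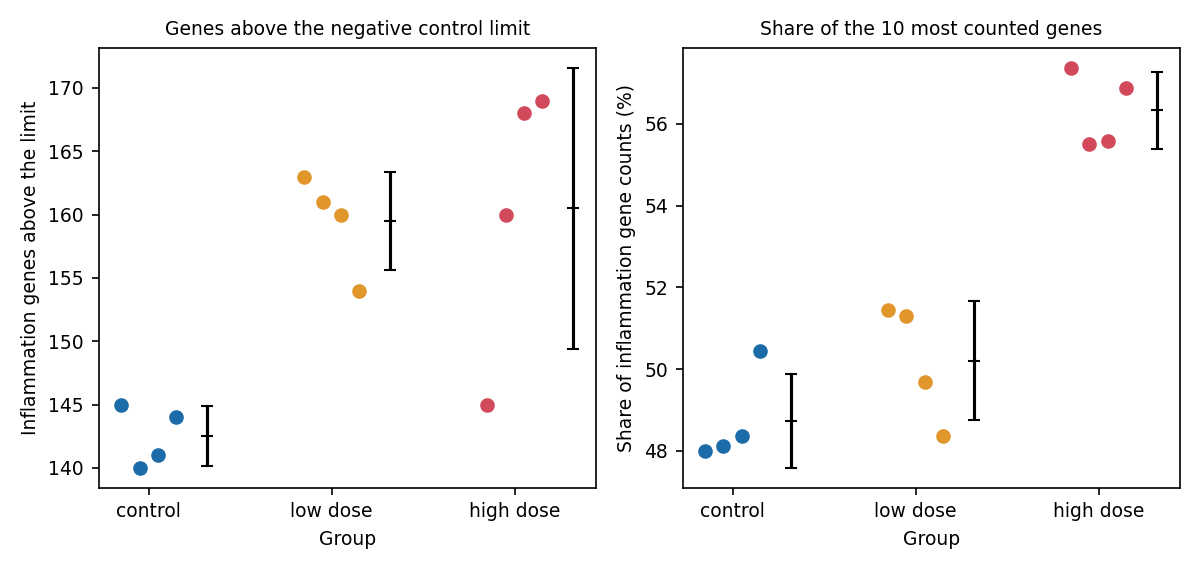
Number of inflammation genes above the limit (left) and percent of counts held by the 10 most counted genes (right), 1 point per mouse, with the mean ± SD of each group as a bar. The control mice lie at 140 to 145 genes and at 48.0% to 50.4% of counts, and the axes do not start at 0.

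The share of counts held by the 10 most counted genes was 48.0%, 48.1%, 48.4% and 50.4% in the control mice (48.7% ± 1.15). It was 50.2% ± 1.46 at the low dose, 1.47 percentage points higher (exact permutation p = 0.171, adjusted 0.171), and 56.3% ± 0.936 at the high dose, 7.60 points higher (p = 0.0286, adjusted 0.0571, exact). Paired by replicate number, that difference had an exact p of 0.125, the smallest that 4 pairs allow. With C3 left out of every lane the high dose lay 1.18 points below the controls (-1.18, exact permutation p = 0.400), so the difference at the high dose rested on C3. C3 alone held 10.6% ± 3.89 of the counts in control mice, 15.9% ± 4.37 in low-dose mice and 25.4% ± 2.07 in high-dose mice. The highest control share of C3, 15.9%, lay within the low-dose range of 12.2% to 21.1% and under the high-dose range of 22.7% to 27.4%.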

How the data were processed

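Oviduct RNA of 12 CD1 mice was counted with the nCounter GX Mouse Inflammation Kit, all lanes in 1 run. The authors deposited 1 table of raw counts, treated as estimated counts because its columns also carry a decimal line for binding density. All 2388 probe values are whole, and 95 are at 1, the smallest. What the instrument software did before export is not given in the sources used here. Groups come from the sample titles, and 0 columns were left unused. Per the labels, every RNA had an integrity number above 9.7.

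Endogenous rows were ranked by mean count over the 4 control lanes after division by a lane scale, the 6 reference genes' geometric mean. Each lane's limit was set 2 SD over the mean of its 8 negative probes. Genes above that limit in at least 4 of 12 lanes entered edgeR 4.0.16 quasi-likelihood fits of all lanes (R 4.3.3), with the reference scale as offset and Benjamini-Hochberg adjustment. The SE of a log2 fold change is its size divided by the root of its F value. The fit was tested on simulated data. The labels name an analysis of variance, which was replaced since the values are counts. Lane measures were compared by exact permutation tests. Replicates are separate mice. Same-numbered control and high-dose lanes deviated together in 4 of 4 numbers (correlations of 0.11 to 0.39), and 4 of 8 lanes correlated best with their own number. For control and low-dose lanes the correlation was over 0.1 in 3 of 4 numbers. As the labels do not say what the numbers mark, the main tests were unpaired, and pairing by number was an alternative. No pair of control lanes was a repeat: their counts differed by a chi-square of at least 24.6 per degree of freedom. Alternatives were other limits, scales, filters, gene numbers, DESeq2 1.42.0, a replicate block, leaving out each mouse and, added after seeing the data, leaving out control mice 2 and 4 and raw counts for the CV. RefSeq (GRCm38.p6) matched 179 of 185 accessions, with 8 changed symbols.

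Members, lists and level boundaries were chosen with earlier results of these data known. Genes were named by rule: the 20 highest, all above the limit in 0 control lanes, the 3 nearest the limit on each side, the 8 highest and 8 lowest in CV, the highest and lowest of each list, and C3, Ccl2, Cxcl1, Cxcl10, Il1b, Il6, Nos2, Tlr4, Tnf and the reference genes. Other genes named as examples within a list were chosen after their values were seen. Values of some genes that this rule names are not reported here.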

Additional observations from a re-analysis of the deposited data

Results flagged for a closer look

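Of 72 groups of 4 values examined (named genes in the control mice and lane measures), 7 had 1 control mouse far from the other 3 by Dixon's test at 95%, where chance gives about 1 in 20, or 3.60. That number does not hold for Masp2, Ccl8 and Tlr1, which were named for their high CV. Mouse 1 was the one apart for 4 of them. Tlr1 stood at 193.2 scaled counts in mouse 1 against 72.6 to 78.8 in the others, Ccl8 at 165.3 against 47.9 to 56.9, and Masp2 at 124.9 against 34.9 to 39.9. The raw counts of mouse 1 were 229, 196 and 148. Gapdh, a reference gene and so part of the scale itself, stood at 7414 in mouse 1 against 8632 to 8690, while its raw count there, 8789, was the highest of the 4. Rhoa stood at 4355 in mouse 2 against 3850 to 3895, while its raw count there, 3365, was the lowest of the 4. Tgfb1 stood at 293.6 in mouse 3 against 247.2 to 253.4, while its raw counts were 297, 191, 287 and 254 in control mice 1 to 4. So the place of these mice depends on the scale. The share of counts held by the 10 most counted genes was 50.4% in mouse 4 against 48.0% to 48.4%, and that mouse also had the highest share of C3 (15.9%) and the fewest fields of view counted (62.3%). The part of these in the result was not tested.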

How the results depend on the processing

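The number of genes above the limit in all control lanes (130) was 126 to 141 under the other limits and with mice left out. The number above it in 0 lanes (24) was 25 to 29 under those settings except the limit of mean plus 1 SD, where it was 10. The median CV (17.8%) was 12.4% to 21.5%. The gain in genes above the limit at the high dose (18.0) was 12.5 with the positive control scale and 1 limit (p = 0.0286, exact), and 15.2 to 23.2 leaving out 1 mouse, highest without high-dose mouse 1 (p = 0.0286, exact). The gain at the low dose (17.0) was 8.00 with the positive control scale and 1 limit (p = 0.114, exact) and 16.5 without control mice 2 and 4 (p = 0.0667, the smallest 2 against 4 allows, exact). Without those mice the difference in the 10-gene share at the high dose was 8.15 points (p = 0.0667, exact). With C3 left out the share differences became -1.18 and -1.51 points (p = 0.400 and 0.257, exact). Genes called at the high dose (37) numbered 102 with the total count, 59 with DESeq2's size factors, 66 with DESeq2 and 30 to 45 leaving out 1 mouse. At the low dose (4) they numbered 11 with DESeq2, 1 with the 2 groups alone, 0 without control mice 2 and 4 (unadjusted 21 higher and 2 lower), and 1 to 14 leaving out 1 mouse, 14 without low-dose mouse 3. They were 1 or 2 without any one of the control mice or low-dose mice 1 and 2. Tgfb1 at the high dose changed sign with the total count (-0.21, log2). Of 810 other control levels of named genes 724 moved by less than 1 SD.

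For same-numbered control and low-dose mice the correlation was -0.13 for number 3. Of their lanes 5 of 8 correlated best with their own number, against 4 of 8 for control and high-dose mice. With a replicate block edgeR called 34 genes at the high dose and 3 at the low dose, and of the 6 genes named as higher at the high dose it ended the calls of Ccr7 and Cxcl2. The gain in genes at the low dose (17.0) and the share difference at the high dose (7.60) then had p = 0.125 (exact), the smallest that 4 pairs allow. Negative control counts limit what can be said below about 7 counts per lane.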
